A study of Drosophila melanogaster with 37 samples.

Results

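The genes described here are the Dpr, DIP and Beat genes of Drosophila melanogaster, 3 families of neuronal cell-surface proteins with immunoglobulin domains. They were found by name in the transcription unit annotation of the study, as every gene symbol that starts with dpr and a digit, with DIP- and a letter, or with beat-. The rule found 44 of the 17698 genes listed: 21 dpr, 9 DIP and 14 beat genes. No transcription unit (TU) held more than 1 of the 44, so 44 TUs are described, some of them shared with genes of other names. A TU is a stranded interval of the genome that holds 1 gene or several genes.

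The study used mNET-seq, a method that pulls down RNA polymerase II (Pol II) with an antibody and reads the RNA still attached to it, on stage 15 embryos. The antibodies took all Pol II, or Pol II whose C-terminal domain was phosphorylated at serine 2 or at serine 5. Embryos were sorted by sex and came from mothers with a control RNAi or with UAS-mof RNAi, which depletes the histone acetyltransferase MOF of the male dosage compensation complex. The 37 samples formed 12 groups of 2 to 4, each crossing a polymerase form (total, serine 2, serine 5), a sex and an RNAi. Each preparation pooled 6000 embryos, and the driver of the UAS line is not given in the sources used here. Polymerase signal of these samples was not analysed here, so no level, depth, sex difference or knockdown effect is given for any gene, and mof itself carries no value. What follows describes the intervals over which such signal can be summed. A genome annotation has no replicates, so lengths and counts carry no error, and no test was made. The families' counts stand beside the same counts over the 12934 TUs of the 5 large arms (X, 2L, 2R, 3L and 3R) that hold a protein-coding gene, called coding TUs here.

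Dpr proteins (defective proboscis extension response) and DIPs (Dpr-interacting proteins) are small families of membrane proteins that bind each other in selective pairs across cell contacts. Different neurons express different combinations of them, and matched pairs mark synaptic partners in the optic lobe and at the neuromuscular junction, where they bear on cell survival and connection. Beat proteins (Beaten path) are a separate immunoglobulin family, named for the motor axon guidance gene beat-Ia, and bind cell-surface proteins of the Sidestep (Side) family.

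The 3 families were spread differently over the chromosome arms. The dpr genes were on each of the 5 large arms, with 7 on 3R, 4 on 2R, 3 each on 2L, 3L and the X, and dpr7 on chromosome 4. The DIP genes were mostly on 2L, which held 5 of 9, with DIP-alpha and DIP-beta on the X, DIP-delta on 3L and DIP-gamma on 3R. The beat genes lay on 2 arms alone, 8 on 3R and 6 on 2L. In all, 5 of 44 members (11.4%) were on the X, the dosage-compensated chromosome, beside 15.6% of the coding TUs. These were dpr8, dpr14, dpr18, DIP-alpha and DIP-beta. Of the 28 members of at least 20 kb, 3 were on the X (10.7%), beside 20.6% of the 991 coding TUs of that length. On the minus strand were 8 of the 9 DIP genes, with DIP-delta the exception, beside 50.3% of the coding TUs. The same strand held 11 of 21 dpr and 7 of 14 beat genes. Members of different families were never close: the smallest gap between them was 450189 bp, between beat-VI and DIP-gamma on 3R.

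TUs of all 3 families were long. The median of the coding TUs was 2229.5 bp (interquartile range 1205 to 5203), and each of the 44 members exceeded it. The upper quartile was exceeded by 40 members, of which 18 were dpr, 8 DIP and 14 beat. At least 20 kb was reached by 28 of 44 members (63.6%) beside 7.66% of the coding TUs. With 0.332% of the coding TUs, the 43 members on the 5 arms made up 1.81% of the summed length.

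The dpr family held the longest and the shortest TUs of the 3 families. Its median was 22277 bp (interquartile range 6567 to 51960, n = 21), and 11 of 21 reached 20 kb (52.4%). Without the TUs shared with other genes the median was 13006 bp (n = 14). The longest was dpr6 (FBgn0040823), at 164710 bp on 3L from 9974651 to 10139360, plus strand. Second was dpr8 (FBgn0052600), at 140126 bp on the X (14322226 to 14462351, plus strand), before dpr21 (FBgn0260995) at 124513 bp on 2R (3066499 to 3191011, plus strand). A middle group ran from dpr11 at 64162 bp through dpr12 at 56120, dpr1 at 51960, dpr3 at 51089, dpr2 at 47139, dpr10 at 38655, dpr13 at 32781 and dpr9 at 22277 bp to dpr15 at 19763, dpr16 at 19214 and dpr17 at 16545 bp. Of these, dpr1 is the founding gene of the family, named for the response to salt taste, and Dpr11 is a known ligand of DIP-gamma in colour vision circuits. The 7 genes under 10 kb were dpr4 at 9467 bp, dpr18 at 6567, dpr7 at 6206, dpr5 at 5968, dpr14 at 4583, dpr20 at 4529 and dpr19 at 3738 bp. The last of these, dpr19 (FBgn0032233), on 2L from 10376168 to 10379905, plus strand, was still longer than 67.2% of the coding TUs. Lengths within the family thus spanned from 3738 to 164710 bp. On the X the same spread was seen, with dpr8 at 140126 bp and dpr18 and dpr14 at 6567 and 4583 bp.

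The DIP family, as found by the name rule, was more even, with 1 short exception. Its median was 32270 bp (interquartile range 18291 to 35624, n = 9), and 5 of 9 reached 20 kb (55.6%). The median of the 5 single-gene TUs was 18291 bp. DIP-alpha (FBgn0052791), the receptor of Dpr6 and Dpr10, was the longest at 66378 bp and lay on the X (3507245 to 3573622, minus strand). DIP-gamma followed at 45369 bp, then DIP-beta at 35624, DIP-epsilon at 33556, DIP-theta at 32270, DIP-zeta at 19534, DIP-delta at 18291 and DIP-eta at 16224 bp. DIP-iota (FBgn0031837), on 2L from 6617134 to 6621700, minus strand, measured 4567 bp and lay far below the other 8.

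The beat family had the highest share of long TUs. Its median was 36921 bp (interquartile range 24929.5 to 45110.8, n = 14), and 12 of 14 reached 20 kb (85.7%). Its 8 single-gene TUs had a median of 34202.5 bp. The longest were beat-IIIc (FBgn0032629), at 73098 bp on 2L from 17187637 to 17260734, minus strand, beat-Ib at 57302 bp and beat-VI at 56607 bp. From there lengths fell through beat-IIa at 46116 bp, beat-IIIa at 42095, beat-Ic at 41413, beat-Vc at 37157, beat-VII at 36685, beat-IIb at 32797 and beat-Ia at 31720 bp to beat-IV at 22666, beat-IIIb at 20894 and beat-Vb at 18758 bp. One beat gene was under 10 kb, beat-Va (FBgn0038087), at 7860 bp on 3R from 12840560 to 12848419, minus strand. Whether the medians of the families differ from each other was not tested.

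**Figure D1:**
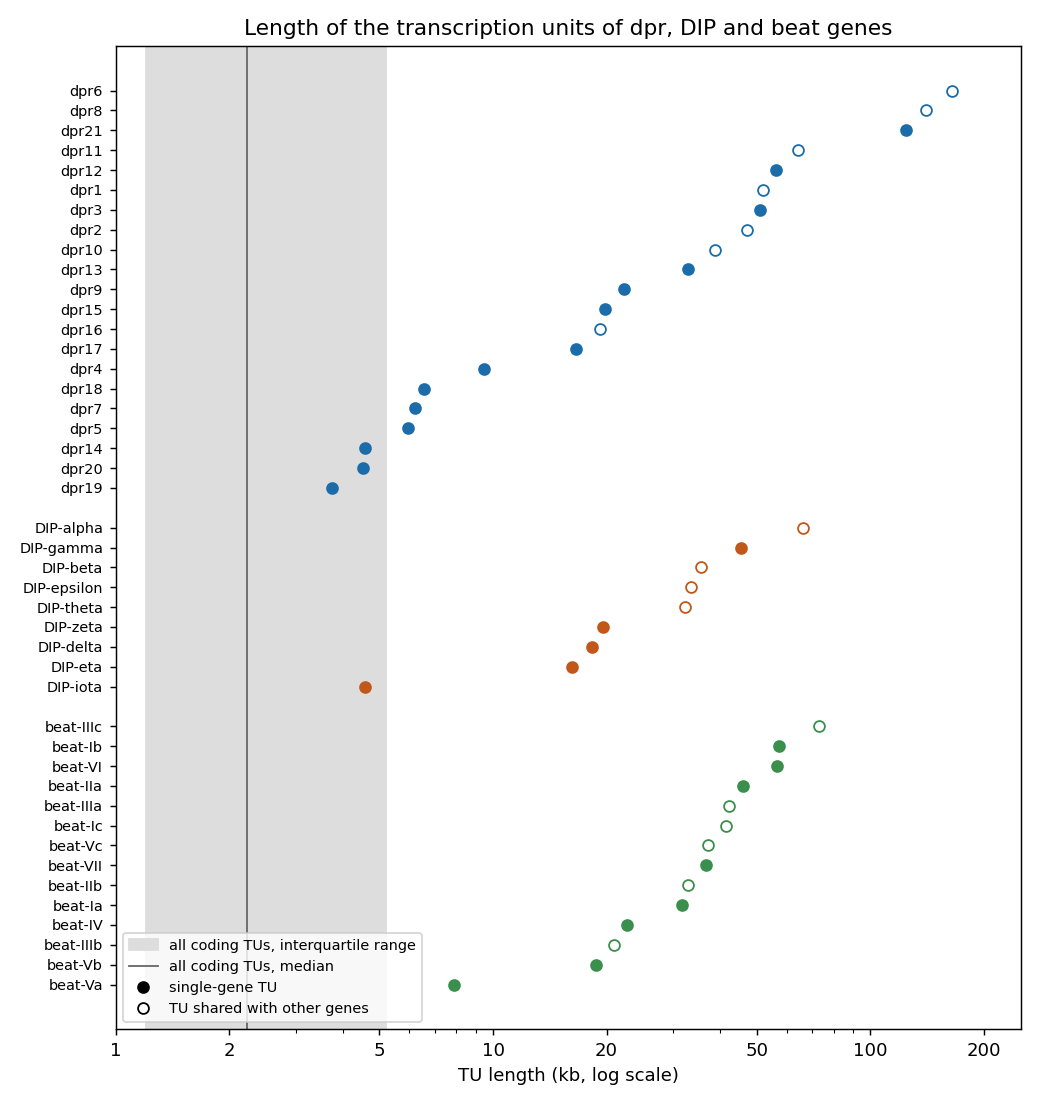
TU length in kb (log scale) of each dpr, DIP and beat gene, with filled points for TUs of 1 gene and open points for TUs shared with other genes. The line and the grey band are the median (2229.5 bp) and interquartile range of the 12934 coding TUs; 40 of the 44 members lie to the right of the band.

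Close neighbours of the same family formed 7 pairs, taken as neighbouring members with at most 50 kb between their nearest ends. These pairs held 13 of the 44 members, 6 dpr, 2 DIP and 5 beat genes. By orientation, 4 were tail-to-tail (opposite strands with 3' ends facing), 2 were tandem (same strand) and 1 was head-to-head (5' ends facing). Among all 104264 pairs of coding TUs with a gap of up to 50 kb, 24.0% were tail-to-tail, 51.0% tandem and 24.9% head-to-head. Those pairs were not limited to neighbouring TUs, so they were built differently from the family pairs.

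The 3 dpr pairs were all tail-to-tail, and the family had no tandem pair. dpr6 and dpr10, which encode the known ligands of DIP-alpha, faced each other on 3L with 8093 bp and no other TU between their 3' ends, and together spanned 211458 bp. dpr5 and dpr4 on 3R were 27531 bp apart, also with no TU between. dpr17 and dpr15, which encode known ligands of DIP-gamma, were 27412 bp apart on 3R, with a tRNA gene and CG4702 between.

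The single DIP pair was tandem. DIP-eta (16224 bp) and DIP-theta (32270 bp) followed each other on the minus strand of 2L with a gap of 8344 bp. The intervening interval held the cytochrome P450 gene Cyp6a16 and the non-coding CR44796, both on the same strand.

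The beat pairs took all 3 orientations. On 2L the 3 beat-I genes lay in a row of beat-Ib, beat-Ic and beat-Ia. beat-Ic and beat-Ia were a tandem pair on the plus strand, 8261 bp apart, with BicC, an RNA-binding regulator of oogenesis, and CG45084 in the gap on the same strand. beat-Ib and beat-Ic were head-to-head at 37855 bp. Also on 2L, beat-IIIa and beat-IIIc were tail-to-tail at 14518 bp with 6 TUs between, among them the gustatory receptor genes Gr36a, Gr36b and Gr36c. beat-IIIb, the other gene of that set, lay 137039 bp from beat-IIIa on the same strand.

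The 50 kb limit bears on the beat family. The pair just inside it was beat-Ib and beat-Ic, and the pair just outside was beat-IIb and beat-IIa, the known partners of Side-IV, in tandem on 3R at 54954 bp. The beat-V genes, whose products bind Side-VI, were somewhat farther apart on 3R, beat-Vc and beat-Va in tandem at 57367 bp and beat-Va and beat-Vb head-to-head at 67636 bp. Up to 100 kb the beat family had 6 pairs, 3 of them tandem, and 10 of its 14 genes were in a pair. The dpr and DIP families gained none. In neither tandem pair within 50 kb were the members direct neighbours on their strand.

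**Figure D2:**
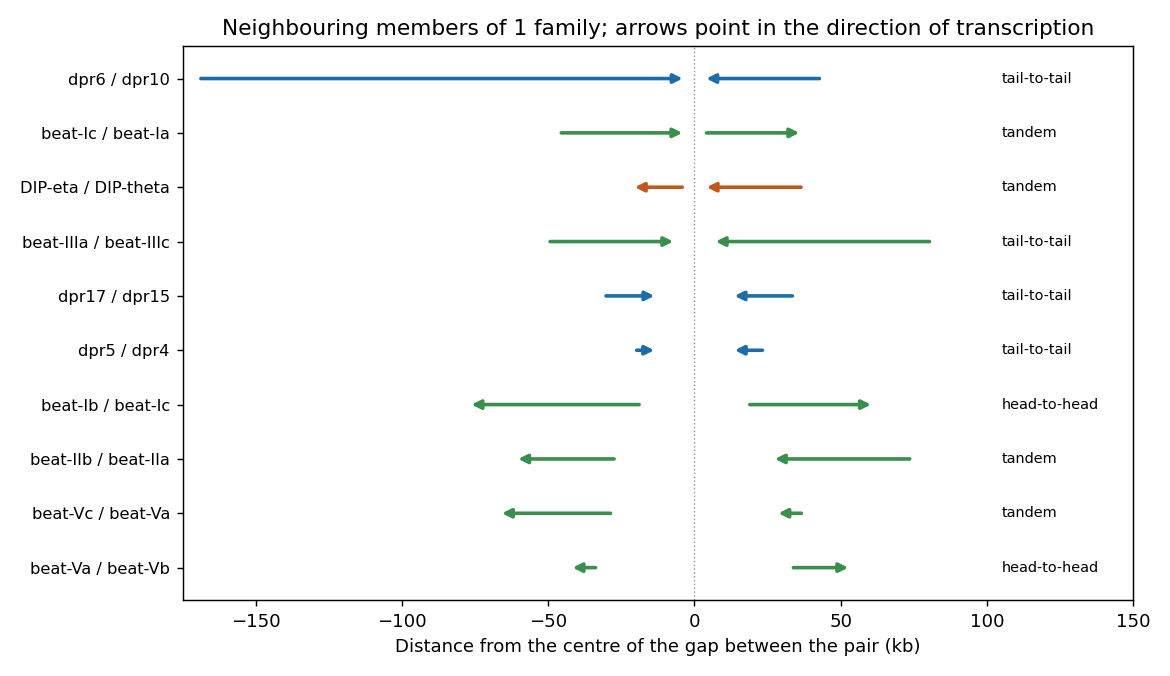
Pairs of neighbouring members of 1 family with a gap of up to 100 kb, each drawn to scale about the centre of its gap in kb, with arrows in the direction of transcription (blue dpr, orange DIP, green beat). Arrowheads meet in the 3 dpr pairs and in beat-IIIa and beat-IIIc, and point the same way in the tandem pairs.

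Many of the long TUs contained smaller TUs. A TU lay wholly inside the span of 22 of 44 members, beside 8.25% of all coding TUs and 46.4% of the 991 coding TUs of at least 20 kb. Of the 28 members of at least 20 kb, 18 contained a TU (64.3%). Over all lengths the member counts were 8 of 21 dpr (38.1%), 5 of 9 DIP (55.6%) and 9 of 14 beat genes (64.3%). Together they contained 45 TUs, each on the strand opposite to its host, since TUs of this annotation never overlap on the same strand. A protein-coding gene was present in 21 of the 45, beside 1037 of the 1687 TUs contained in all coding TUs. For hosts of at least 20 kb the counts were 21 of 41 in the members and 628 of 957 in the coding TUs. In all, 12 members (27.3%) contained a TU with such a gene, beside 5.08% of the coding TUs and 32.4% of those of at least 20 kb. All 12 were themselves at least 20 kb long, which is 42.9% of the 28 members of that length. No member lay inside another TU, beside 8.35% of the coding TUs and 1.51% of those of at least 20 kb. The number of contained TUs rose with TU length across the members (Spearman's rho 0.40 over 44 TUs, which share the annotation as their source) and across all coding TUs (rho 0.36). By family rho was 0.51 for dpr, 0.32 for beat and -0.15 for DIP genes (n = 21, 14 and 9).

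Contained TUs of the dpr genes were coding in 11 of 18 cases, close to the share over all coding TUs (1037 of 1687). dpr6 held the most, 6, of which 5 were coding genes in a row, CG14160, CG32053, CG32054, CG42825 and CG42826, with centres between 68.9% and 76.2% of the way from its start to its end. dpr11 contained 4, Pif2, CG2336 and the non-coding CR46132 and CR46131. dpr3 contained CG12674 and 2 non-coding units, and dpr1, dpr2, dpr4, dpr10 and dpr13 contained 1 each. The next longest, dpr8 and dpr21, contained none, so the longest dpr genes differed in this respect. Contained TUs covered at most 8.23% of a dpr TU, in dpr4.

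Contained TUs of the DIP genes were mostly non-coding, 8 of 10, but 6 of these were microRNAs of a single cluster in DIP-theta. The intervals of mir-959, mir-960, mir-961, mir-962, mir-963 and mir-964, a microRNA cluster, lay within DIP-theta on the opposite strand, all within 2L from 5640940 to 5642201, with centres between 50.9% and 54.5% of the way from the start of the host. DIP-eta contained CR44795 and DIP-iota CR44913. DIP-epsilon contained CG9507. DIP-alpha contained ppk8, a member of the pickpocket sodium channel family, whose TU of 14189 bp covered 21.4% of DIP-alpha, the highest share among the 44 members. That containment comes from the merging of genes into TUs: ppk8 ended 351 bp beyond the RefSeq span of DIP-alpha, inside the part of the TU that CG2875 added.

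Contained TUs of the beat genes numbered 17, of which 8 were coding. beat-Ib held the most of all members, 7, among them the coding genes CG13244, CG4793, CG12448 and CG18063, which together with 3 non-coding units covered 14.8% of its length. beat-Ic contained 3, CG34167, CR43826 and CG31820, all within 13.9% of the way from its start. The other hosts had 1 each: beat-IIIb with CG44406, beat-VII with Tb, a cuticle protein gene of the Tweedle family known for the Tubby body shape, and beat-Ia, beat-IIIc, beat-Vb, beat-Vc and beat-VI with a non-coding unit. beat-IIa, beat-IIb, beat-IIIa, beat-IV and beat-Va contained none. The centre of a contained TU lay in the first 50% of the host in 10 of 17 cases for beat, 4 of 18 for dpr and 2 of 10 for DIP genes. The same share over all coding TUs was not computed. The 6 microRNAs of DIP-theta, with centres between 50.9% and 54.5%, lay just past that limit, and dpr6 alone gave 5 adjacent coding units past it. Several of these units share a host, so they are not independent of each other, and the difference was not tested.

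**Figure D3:**
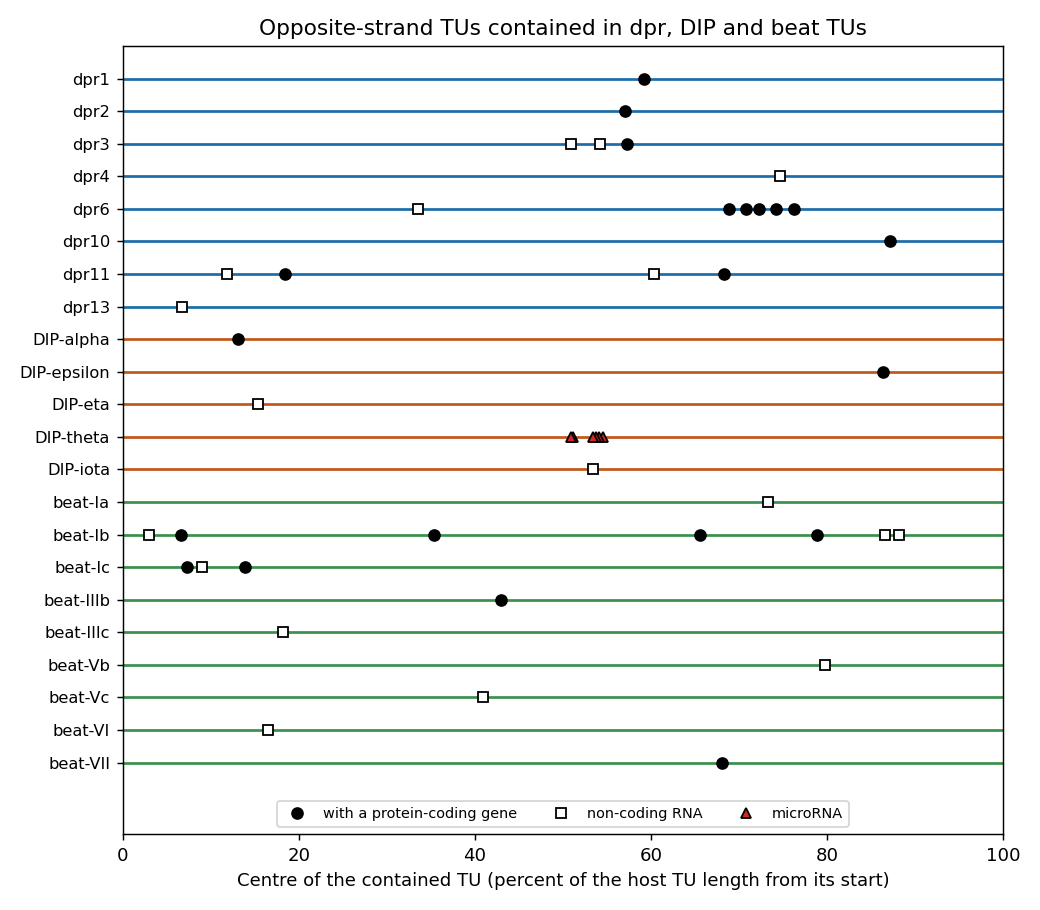
Position of each contained opposite-strand TU in the 22 host TUs, as the percent of host length from the host's start (0) to its end (100). Filled circles hold a protein-coding gene, squares a non-coding RNA and triangles a microRNA; the 5 coding units of dpr6 and the 6 microRNAs of DIP-theta form tight groups.

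On the same strand, genes inside a member were merged into its TU. A shared TU was found for 17 of 44 members (38.6%), beside 8.40% of all coding TUs and 39.0% of those of at least 20 kb. Of the 28 members of at least 20 kb, 16 had a shared TU (57.1%). The 17 members with a shared TU were 7 dpr, 4 DIP and 6 beat genes. Their TUs held 29 other genes, of which 14 were protein-coding. By RefSeq coordinates 27 of the 29 lay inside the member gene, 1 extended beyond it, and the snoRNA gene in the dpr10 TU was not matched. The shared TUs were long, with a median of 41413 bp (19214 to 164710), and single-gene members had a median of 19534 bp (n = 27). The TU and the RefSeq gene of the member shared both ends in 42 of 44 cases. The exceptions, both at the start, were DIP-alpha, 1973 bp longer through CG2875, and beat-Vc, 24 bp shorter.

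Strand-specific signal summed over such a TU includes that of the other genes. In dpr8 these were betaNACtes3 and betaNACtes4, testis-specific relatives of a subunit of the nascent polypeptide-associated complex. dpr6 shared its TU with 3 non-coding genes and a pseudogene, dpr2 with CR44492 and CR44493, dpr1 with CR44660, dpr10 with CG6628 and a snoRNA gene, dpr11 with CG1137 and dpr16 with CG12590. DIP-alpha shared with MRE16 and CG2875, DIP-beta with CG10918, DIP-epsilon with CG42370 and CG42369 and DIP-theta with CR44822. beat-Ic shared with 4 genes, of which CG13245 and CG43816 had the same start and end as each other, and beat-IIIb with CR44408 and CG31806. beat-IIb shared with CG44259, beat-IIIc with CR44396 and beat-Vc with CR44233. CG34106 had exactly the span of beat-IIIa, 42095 bp, so coordinates do not tell these genes apart.

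Partial overlaps with an opposite-strand TU, in which neither contains the other, were found for 4 members (9.09%), 1 dpr and 3 DIP genes, beside 25.3% of the coding TUs and 18.9% of those of at least 20 kb. The 3' end of DIP-alpha was overlapped over 15543 bp by a TU of 149629 bp that held Myc, a growth regulator, and 5 other genes. The 3' end of dpr16 was overlapped over 118 bp by the TU of cno, an adherens junction gene, and that of DIP-gamma over 83 bp by CG11828. The start of DIP-zeta was overlapped over 133 bp by the non-coding CR44483, the only member whose start was covered. With contained TUs included, 25 of 44 members had an opposite-strand overlap (56.8%), of which 9 were dpr, 7 DIP and 9 beat genes. The share was 39.8% for the coding TUs and 58.1% for those of at least 20 kb. Of the 28 members of at least 20 kb, 19 had such an overlap (67.9%).

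Starts of the members mostly had no facing neighbour. A divergent start, in which an opposite-strand TU starts within 500 bp upstream, was found for 4 of 44 members (9.09%), beside 27.3% of all coding TUs and 13.6% of those of at least 20 kb. dpr19 faced the TU of rho-5, a rhomboid family gene, at 411 bp, DIP-gamma faced CR45669 at 169 bp, beat-IIb faced CG44257 at 229 bp and beat-IV faced CG10164 at 469 bp. The median distance from a member's start to the next TU upstream was 4517 bp, and from its end to the next downstream 5354 bp. Over all coding TUs these distances were 364 and 142 bp, and over those of at least 20 kb 1153 and 404 bp. Over the members of at least 20 kb they were 5068.5 and 5354 bp. The widest were at dpr21, which had no TU for 98446 bp upstream and 143842 bp downstream.

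Of the 44 members, 28 were isolated, that is, at least 2000 bp long with a margin of 500 bp about both ends that no other TU touched. This was 63.6% of the members, beside 10.4% of all coding TUs and 35.6% of those of at least 20 kb. The counts were 14 of 21 dpr (66.7%), 4 of 9 DIP (44.4%) and 10 of 14 beat genes (71.4%). Among the members of at least 20 kb the share was 19 of 28 (67.9%). The limit of 2000 bp excludes part of all coding TUs, whose lower quartile is 1205 bp, but no member, the shortest being 3738 bp. An isolated TU can still contain others, as dpr6, DIP-theta and beat-Ib did. Of the X-linked members, dpr8 and DIP-beta were isolated and contained no other TU, while dpr14 and dpr18 each had a TU 60 bp downstream and DIP-alpha was overlapped at its 3' end.

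**Figure D4:**
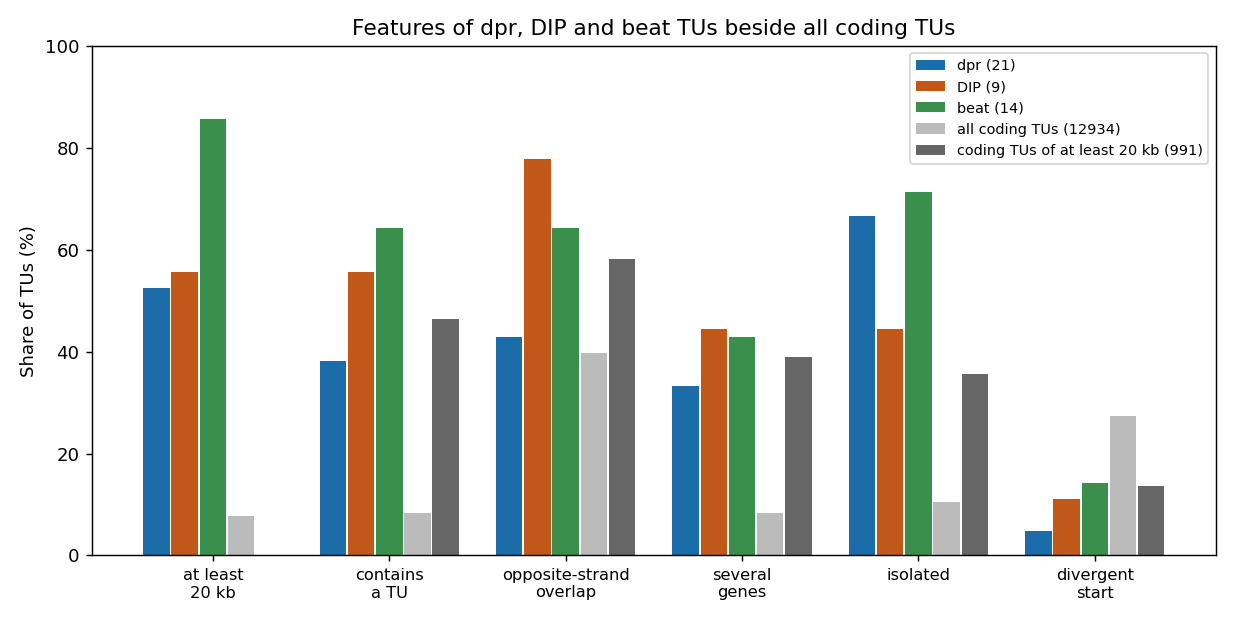
Share of TUs, in percent, with each of 6 features for the dpr (21), DIP (9) and beat (14) genes, for all 12934 coding TUs and for the 991 coding TUs of at least 20 kb (not drawn for the length feature, which defines them). Member bars exceed those of all coding TUs for each feature except divergent starts. Beside the long coding TUs the dpr bars are lower for containing a TU, for opposite-strand overlap and for several genes. The dpr bars include TUs under 20 kb, however. For the 11 dpr TUs of at least 20 kb these shares were 63.6%, 63.6% and 54.5%. The long coding TUs had 46.4%, 58.1% and 39.0%.

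Transcripts per gene were few beside other long genes but not beside all coding genes. The 27 single-gene member TUs listed 1 to 5 transcripts with a median of 2, beside a median of 1 for the 11848 single-gene coding TUs, where the highest count was 75. The means were 2.07 transcripts in each set. More than 1 transcript was listed by 20 of 27 (74.1%), beside 48.6% of the single-gene coding TUs, in 10 of 14 dpr, 3 of 5 DIP and 7 of 8 beat genes. Among single-gene TUs of at least 20 kb, the 12 members had a median of 2 and a mean of 1.92 transcripts, while the 605 coding TUs had a median of 4 and a mean of 5.26. More than 1 transcript was listed by 9 of these 12 and by 91.9% of the 605. The number of transcripts in the annotation equalled the number of RefSeq transcripts in 27 of 27 of these genes. In a shared TU the annotation does not assign transcripts to genes, so the RefSeq count was used for the other 17 members.

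By RefSeq, dpr6, dpr17 and DIP-beta had 5 transcripts each and dpr10 had 4. Among the dpr genes dpr3, dpr12 and dpr19 had 3, and dpr4, dpr18, dpr20 and dpr21 had 1. DIP-alpha, DIP-delta and DIP-zeta had 3, DIP-eta had 2, and DIP-gamma, DIP-epsilon, DIP-theta and DIP-iota had 1. Of the beat genes, beat-Ic and beat-Va had 3, beat-VII and beat-Vc had 1, and the other 10 had 2. Between length and number of transcripts, rho was 0.11 for the single-gene dpr (n = 14), 0.16 for DIP (n = 5) and -0.44 for beat TUs (n = 8), 0.02 over these 27 together and 0.53 over all single-gene coding TUs. For example, dpr21 had 1 transcript in 124513 bp, and dpr19 had 3 in 3738 bp.

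**Figure D5:**
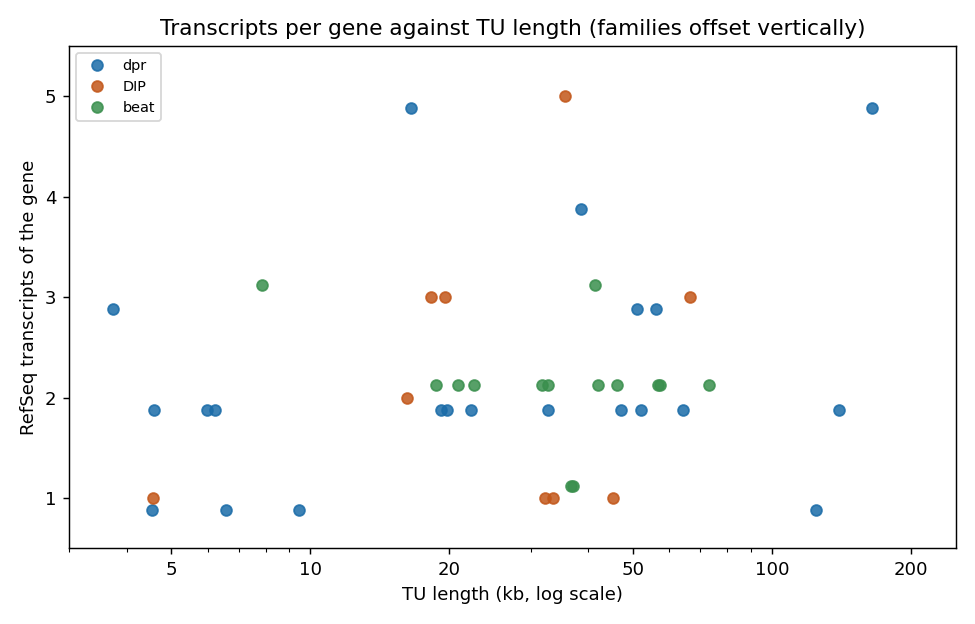
RefSeq transcripts of each gene against TU length in kb (log scale) for the 44 members, with the families offset vertically by a small amount so that points can be told apart. Members under 10 kb have 1 to 3 transcripts, and those with 4 or 5 are dpr17 (16545 bp) and the longer DIP-beta, dpr10 and dpr6.

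Related genes outside the name rule had similar TUs in part. RefSeq gives the name DIP-kappa to CG31814, a TU of 40461 bp on 2L that contained CG7311, and DIP-lambda to CG45781, a TU of 379081 bp on 2R, which is longer than each of the 44 members. The 8 genes of the Side family, the binding partners of Beat proteins, had a median of 58504.5 bp (5968 to 96691). At least 20 kb was reached by 6 of 8 and 6 were isolated, 5 contained another TU, 0 had a divergent start and 0 were on the X, where beat genes also numbered 0. A further 6 genes outside these families (fipi, cDIP, Lac, klg, wrapper and Ama) had a median of 7740 bp (1855 to 62448). Of these, 2 were of at least 20 kb and 1 was isolated. cDIP, a secreted protein that binds Dpr and DIP proteins, had the shortest TU of these, 1855 bp.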

How the data were processed

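The series comprises mNET-seq of 37 samples, whose titles give antibody, sex and RNAi. The submitters' processing notes name DESeq, DESeq2, SAMtools 1.20, cutadapt 2.8 and STAR 2.7.4a, with build dm6 and without settings. Per the file headers, the deposited TU annotation analysed here came from rtracklayer 1.48.0. It gives for each of 15991 TUs its arm, 1-based start and end in bp, strand, gene symbols, FlyBase genes and transcripts. How the authors merged genes is not stated in the file headers. It holds no value of any sample.

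Members were taken from gene symbols by name. The members, lists and definitions were chosen with earlier results of these data known. RefSeq genes of the same assembly gave gene classes, spans and transcripts per gene, and matched 17626 of 17698 genes by symbol or by a synonym fitting 1 gene on that chromosome. Gaps counted the bases between nearest ends, overlap needed 1 bp, and a contained TU lay wholly within another. No test was run, since members share 1 annotation and were not sampled. Named were all 44 members, with pair partners, contained and shared genes. Neighbour functions were tested on 600 simulated TUs against plain loops, with 0 differences in 8 functions. Software was numpy 2.4.6 and scipy 1.17.1 under Python 3.11.15, and matplotlib 3.10.9. Protein identities and promoter motifs, planned with the other results, were not run, because no sequences were used here.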

Additional observations from a re-analysis of the deposited data

How the results depend on the processing

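Of 48 alternative values for the 3 families, 38 stayed within 1.5 times the reported count or within the 95% binomial confidence interval of the reported median, and 10 moved. That interval served only as a tolerance and measures no error, since the members were not sampled. No paired analysis was possible because no sample values entered the results. With no same-strand TU allowed between the members, the tandem pairs of the DIP and beat families fell from 1 each to 0, and at 100 kb beat had 3. Counting only contained TUs with a protein-coding gene, hosts were 2 DIP in place of 5 and 4 beat in place of 9, and the dpr count was 6 in place of 8. Divergent starts within 250 bp were 0 dpr and 1 beat, in place of 1 and 2. Within 1000 bp they were 3 dpr and 3 DIP, in place of 1 each. TUs of at least 10 kb, a limit chosen after seeing the data, were 8 DIP in place of 5. These changes follow from the definitions. Single-gene TUs alone gave shorter medians, 13006 bp for dpr, 18291 for DIP and 34202.5 for beat. The dpr and DIP medians thereby fell by more than 1.5 times, although counted among the 38, since the intervals of the reported medians are wide. RefSeq transcripts per gene and containment in the RefSeq gene span were also added after seeing the data, and the latter left 4 DIP hosts in place of 5. The planned protein identity and promoter motif alternatives were not run. TU starts are annotated, not measured in these embryos.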
